A study of Mus musculus with 9 samples.

Results

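The complement genes of skin were followed as a set of 9: the C1q subunits C1qa, C1qb and C1qc, the components C2, C3, C4b and Cfb, the inhibitor Serping1 and the receptor C3ar1. They were chosen by name, and all probe sets annotated to them were taken, out of 8251 genes with a probe set of their own on the array. Of the 9 genes, 7 have probe sets of their own, C4b is read only by probe sets annotated to C4a and C4b together, and C3 is not analysed here because no probe set is assigned to it in the annotation used. This gave 12 probe sets, of which 9, covering 8 genes, were bright enough to be tested.

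RNA came from whole skin of 5 Cd1d-/- mice and 4 Cd1d+/+ mice, 1 array per mouse. The knockout mice were on a C57BL/6 background and the wild-type mice were C57BL/6. All were free of ultraviolet irradiation, and the genotypes were matched for age and sex. Whole skin holds keratinocytes, fibroblasts, vessels, fat and immune cells together, so fewer cells of a type and less RNA per cell cannot be told apart. Cd1d encodes a molecule that presents lipids to natural killer T cells, and the comparison asks how skin without it differs before any ultraviolet exposure.

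Complement is a cascade of plasma and tissue proteins that tags microbes and dying cells. C1q binds immune complexes or apoptotic cells and, with the proteases C1r and C1s, cleaves C4 and C2 in the classical pathway, whereas factor B, encoded by Cfb, serves the alternative pathway. Both pathways meet at C3, and C1 inhibitor, encoded by Serping1, blocks C1r and C1s. Most plasma complement comes from liver, but C1q is made mainly by macrophages and dendritic cells, and fibroblasts, endothelial cells and keratinocytes can make C2, C4, factor B and C1 inhibitor.

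The C1q genes lie next to each other on chromosome 4 in the order C1qb, C1qc, C1qa, and Cfb and C2 are neighbours on chromosome 17, which also carries C4b. Serping1 is on chromosome 2 and C3ar1 on chromosome 6. Of the 8 measured members, 3 (C1qb, C1qc and C3ar1) have a promoter in the RefSeq table of GRCm38.p6, which covers 250 bases before the start of each gene and the first 50 bases after it. The promoters of C1qb (chr4:136886151-136886450, minus strand) and C1qc (chr4:136892865-136893164, minus strand) are shown because they drive neighbouring genes that encode chains of one protein. Each is written 5′ to 3′ along the gene, and the capitals mark GAGGAA, the core bound by the myeloid factor PU.1, on either strand.
C1qb: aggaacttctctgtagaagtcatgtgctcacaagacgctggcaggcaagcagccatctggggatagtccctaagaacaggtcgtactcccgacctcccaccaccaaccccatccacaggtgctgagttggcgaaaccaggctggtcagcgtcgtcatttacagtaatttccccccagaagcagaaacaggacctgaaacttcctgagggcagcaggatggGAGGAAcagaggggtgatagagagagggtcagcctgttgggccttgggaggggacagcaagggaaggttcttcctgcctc
C1qc: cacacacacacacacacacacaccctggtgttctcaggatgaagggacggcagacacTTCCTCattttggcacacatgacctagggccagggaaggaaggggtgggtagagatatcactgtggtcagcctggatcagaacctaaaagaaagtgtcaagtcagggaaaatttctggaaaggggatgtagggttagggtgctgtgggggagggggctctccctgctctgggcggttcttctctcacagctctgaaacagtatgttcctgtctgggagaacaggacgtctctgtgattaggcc

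The GAGGAA match begins 30 bases before the start of C1qb on the gene's own strand, and 193 bases before the start of C1qc on the opposite strand. GAGGAA occurs on either strand in 28.3% of all 32851 promoter windows of 300 bases in the table, so 1 match in a window is common. The window of C3ar1 holds 0 matches of GAGGAA. The interferon response element, GAAA and again GAAA with 2 free bases between, is in 3.44% of all windows and has 0 matches in these 3, searched on both strands. These matches are letters in a window and were not measured as binding sites.

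Levels are MAS5 signals in arbitrary units, given as mean ± SD, and differences are log2 signal in Cd1d-/- minus Cd1d+/+ skin. The level of one probe set cannot be set against that of another. The targeted gene Cd1d1 read 47.6 to 79.6 in the knockout arrays and 91 to 130 in the wild-type arrays, and whether its probes lie in the deleted part is not given in the sources used here. The skin keratin Krt10 averaged 6835 ± 845 in Cd1d-/- skin (SD, n = 5) and 6333 ± 403 in Cd1d+/+ skin (SD, n = 4). The deposited values have 7 decimals in 5 arrays (2 knockout and 3 wild type) and 9 decimals in the other 4 (3 knockout and 1 wild type). What this marks is not stated, so results are also given within each set of arrays.

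In Cd1d-/- skin the mean of each of the 9 tested complement probe sets lay below that in Cd1d+/+ skin, by small amounts, from -0.38 for C1qa to -0.045 for Cfb. Of these 9, 0 passed limma's threshold of adjusted p 0.05, and over all 7658 tested probe sets 4 passed (0.0522%), 0.0261% with a lower and 0.0261% with a higher knockout level. At an unadjusted p under 0.05 the count was 1 of 9, C1qa, while 9.4% of all probe sets had such a p, 3.96% with a lower and 5.45% with a higher knockout level. The knockout and wild-type arrays overlapped in all 9, whereas 3.21% of all tested probe sets showed no overlap, 1.38% with the knockout below. A lower knockout mean by itself was seen in 48.8% of all probe sets.

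**Figure D1:**
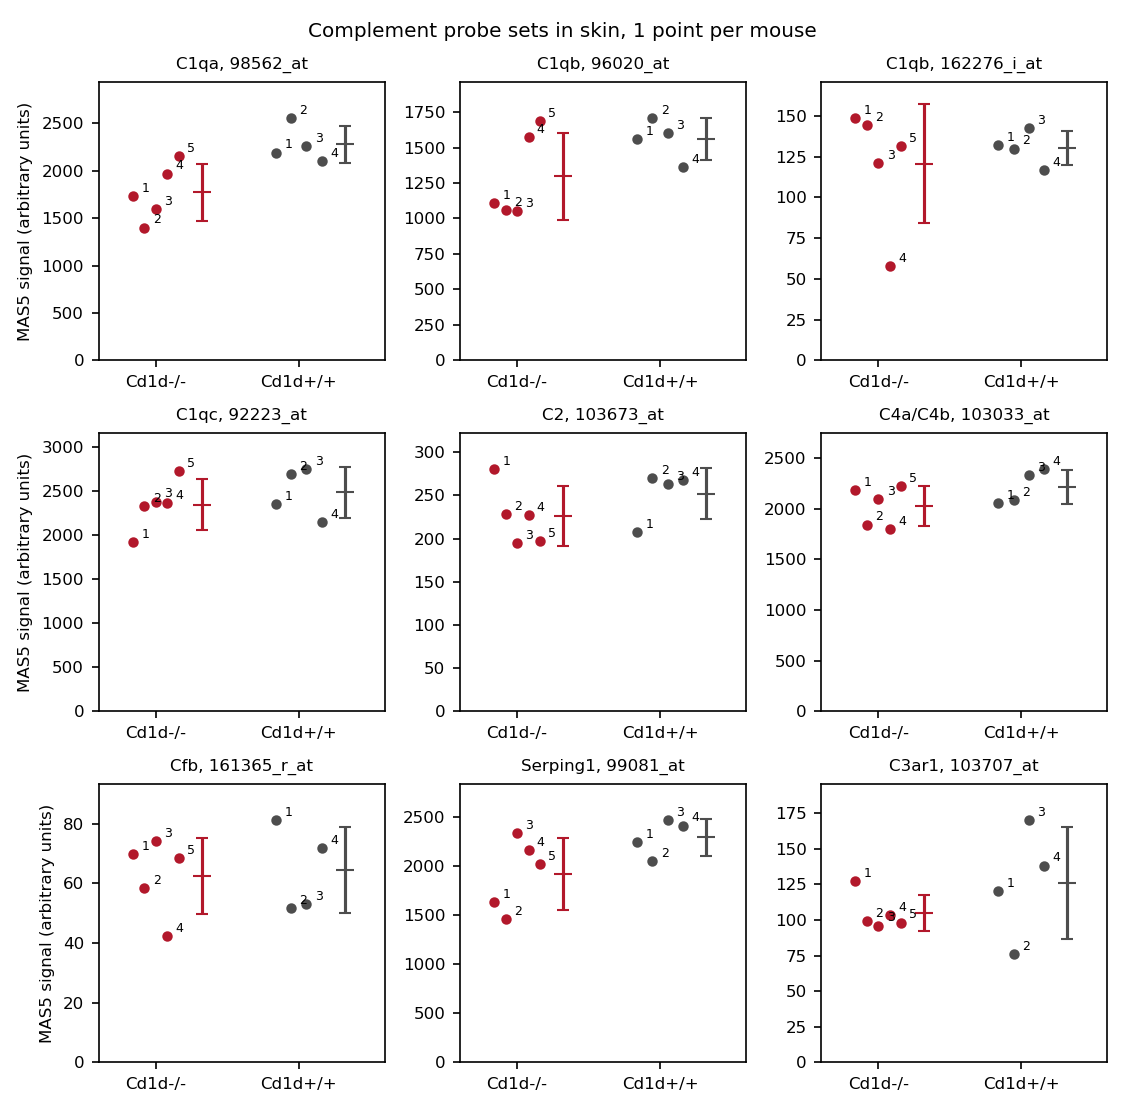
MAS5 signal (arbitrary units, linear axis from 0) of the 9 tested complement probe sets, with 1 point per mouse numbered by replicate, Cd1d-/- in red and Cd1d+/+ in grey, and the mean ± SD beside each group. C1qa has 4 of 5 knockout points below all wild-type points, and in every panel the groups overlap.

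C1qa encodes the A chain of C1q. Its signals in Cd1d-/- skin were 1735.8, 1400.5, 1594.7, 1970.2 and 2159 in knockout 1 to 5, against 2190.8, 2557.6, 2264 and 2102.5 in wild type 1 to 4 of Cd1d+/+ skin. Knockout 1 to 4 lay below every wild-type mouse, while knockout 5 fell among them. The means were 1772 ± 300 in the knockout (SD, n = 5) and 2279 ± 197 in the wild type (SD, n = 4), a log2 difference of -0.38 with SE 0.13. The knockout level was 0.771 of the wild-type level (95% interval 0.629 to 0.945), and the limma adjusted p was 0.435. This was the smallest p among the members, ranking 292 of 7658.

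C1qb, the B chain, is read by 2 probe sets. The brighter one gave 1105.9, 1059.1, 1055, 1571.1 and 1688.3 in knockout 1 to 5, against 1562.2, 1708.9, 1604 and 1359.8 in wild type 1 to 4. The knockout mice were split: 3 lay below every wild-type mouse and 2 lay inside the wild-type range. The log2 difference was -0.29 with SE 0.16, a ratio of 0.816 (95% interval 0.636 to 1.05), and the limma adjusted p was 0.612. The dimmer one read 121 ± 36.7 in Cd1d-/- skin (SD, n = 5) and 130 ± 10.5 in Cd1d+/+ skin (SD, n = 4). Knockout 4, at 58.0, stood apart there, although the same mouse had a high signal on the brighter probe set. The log2 difference of the dimmer probe set was -0.18 (limma adjusted p = 0.851), and without knockout 4 its sign was opposite, at 0.065 (adjusted p = 0.908, with a range of 0.399 to 0.994 over all its alternatives).

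C1qc, the C chain, differed least among the C1q subunits. It read 1919.7, 2328.2, 2381.6, 2361.3 and 2732.1 in knockout 1 to 5, against 2352.5, 2691.5, 2752.9 and 2147.4 in wild type 1 to 4. Only knockout 1 lay below the wild-type range. The log2 difference was -0.086 with SE 0.12, and the ratio of 0.942 had a 95% interval of 0.782 to 1.13 (limma adjusted p = 0.855). Within each array, the log2 ratio of C1qa to C1qc, centred on its mean over the 9 arrays, was -0.13 ± 0.24 in the knockout (SD, n = 5) and 0.16 ± 0.11 in the wild type (SD, n = 4). Wild-type mice lay between 0.00092 and 0.25 and knockout mice between -0.45 and 0.14, so the groups overlap, and this ratio was not tested.

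Over the 4 tested C1q probe sets the median log2 difference was -0.24, where the median over all 7658 probe sets was 0.0071. Within the arrays of 7 decimals it was -0.38, and within those of 9 decimals, which have 1 wild-type mouse, it was -0.18. C1qa was lower in both sets of arrays (-0.56 and -0.21), as was the brighter C1qb probe set (-0.52 and -0.15), whereas C1qc was not (-0.25 and 0.080).

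Of the components that stromal and epithelial cells can make, C2, the protease that pairs with C4 in the classical pathway, read 280.6, 227.9, 195.1, 227.6 and 197.2 in knockout 1 to 5, against 207.8, 269.6, 262.7 and 267.6 in wild type 1 to 4. The highest value of all was in a knockout mouse, and wild type 1 was apart from the other wild-type mice. The log2 difference was -0.16 with SE 0.15 (ratio 0.893, 95% interval 0.716 to 1.11, limma adjusted p = 0.772).

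The probe set shared by C4a and C4b reads C4, from which the classical pathway forms its C3 convertase, and cannot separate these near-identical genes. It gave 2179.1, 1842.4, 2094.4, 1795.1 and 2223.4 in knockout 1 to 5, against 2053.8, 2086.7, 2329.4 and 2391.6 in wild type 1 to 4. This was the steadiest member: its SD within genotype was 0.13 (log2), and 5.76% of all tested probe sets had a smaller one. The log2 difference was -0.13 with SE 0.11, and the ratio of 0.913 had a 95% interval of 0.777 to 1.07 (limma adjusted p = 0.741).

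Cfb was dim. Its tested probe set read 69.7, 58.3, 74.1, 42.3 and 68.4 in knockout 1 to 5, against 81.3, 51.8, 53.2 and 71.8 in wild type 1 to 4, close to the filter signal of 43.4 to 53.3. The groups overlapped widely. The log2 difference was -0.045 with SE 0.23 (ratio 0.969, 95% interval 0.681 to 1.38, limma adjusted p = 0.971), and it was 0.089 without knockout 4, 0.075 without wild type 1 and 0.015 without wild type 4 (adjusted p from 0.809 to 0.995 over all its alternatives).

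Serping1, the gene of C1 inhibitor, differed most among these genes. Its signals were 1629.6, 1458.5, 2330.5, 2160.4 and 2015 in knockout 1 to 5, against 2242.4, 2046, 2468.3 and 2410.4 in wild type 1 to 4. Knockout 1 and 2 were low, knockout 5 lay just below the wild-type range, and knockout 3 and 4 lay inside it. The means were 1919 ± 365 in the knockout (SD, n = 5) and 2292 ± 190 in the wild type (SD, n = 4), a log2 difference of -0.27 with SE 0.15 (ratio 0.827, 95% interval 0.663 to 1.03, limma adjusted p = 0.578). Within the arrays of 7 decimals, which hold the low knockout 1 and 2, the log2 difference was -0.58, and within those of 9 decimals it was -0.051.

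Over the 4 tested probe sets of C2, C4a and C4b, Cfb and Serping1 the median log2 difference was -0.15, and -0.13 and -0.034 within the arrays of 7 and of 9 decimals. To set C1q beside this group in each mouse, 1 probe set per gene was centred on its 9-array mean and averaged. C1q minus the other components was -0.044 ± 0.26 in the knockout (range -0.31 to 0.24, SD, n = 5) and 0.055 ± 0.22 in the wild type (range -0.23 to 0.30, SD, n = 4), ranges that overlap almost wholly.

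C3ar1, the receptor for the C3a fragment, is found on myeloid and other cells. It read 127.4, 99.2, 96.1, 103.5 and 98.3 in knockout 1 to 5, against 120.2, 76, 170.4 and 138.3 in wild type 1 to 4. The knockout mice were tightly grouped apart from knockout 1, whereas the wild-type mice held both the lowest and the highest value. The log2 difference was -0.22 with SE 0.22 (ratio 0.861, 95% interval 0.621 to 1.20, limma adjusted p = 0.792), and it was -0.44 without wild type 2 and -0.051 without wild type 3 (adjusted p from 0.398 to 0.968 over all its alternatives).

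The remaining 3 probe sets were too dim to be tested. The second probe set of C2 averaged 13.9 ± 6.90 in the knockout and 9.50 ± 5.61 in the wild type (SD, n = 5 and 4), and the second of C4a and C4b stayed between 0.4 and 1.8 in all arrays. The second probe set of Cfb averaged 44.2 ± 4.43 in the knockout and 41.5 ± 8.36 in the wild type. These levels lie at or below the filter signal and carry no order between the genotypes.

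**Figure D2:**
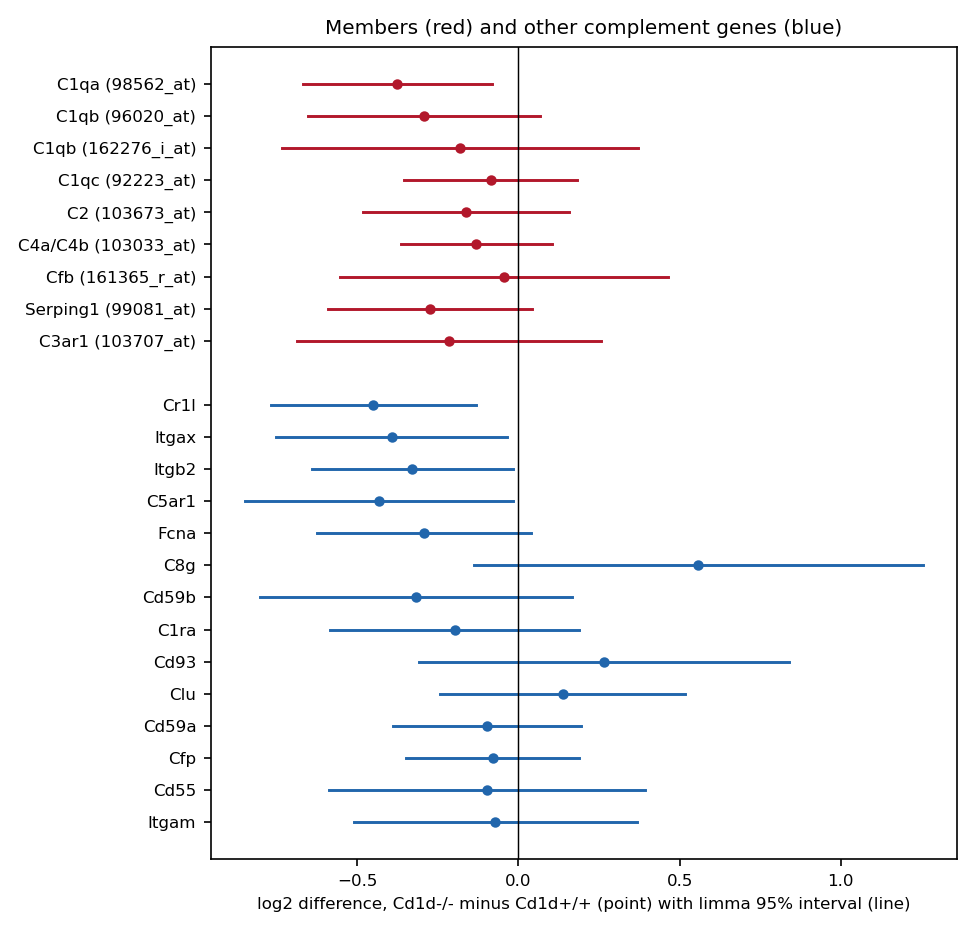
Log2 difference between Cd1d-/- and Cd1d+/+ skin (points) with limma's 95% interval (lines) for the 9 tested member probe sets in red and 14 other complement genes in blue. The member intervals include 0 except that of C1qa (-0.67 to -0.082), and most points lie left of 0.

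The rest of the pathway was read from a list of 42 other complement genes, of which 27 have a probe set of their own and 14 were bright enough to test. Of these 14, 11 had lower and 3 had higher means in Cd1d-/- skin, with a median log2 difference of -0.15, where the median over all 5855 genes tested with 1 probe set each was 0.0070. In this list 0 genes passed limma's adjusted threshold and 4 had an unadjusted p under 0.05, all lower in the knockout. Over all 5855 genes 502 had such a p (8.57%), 225 of them lower in the knockout. Those 4 are receptors or regulators on cell surfaces.

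Cr1l, which encodes Crry, the membrane inhibitor of C3 and C4 activation in rodents, read 265.7, 185.6, 229.9, 262.4 and 287 in knockout 1 to 5, against 355.5, 302.6, 354.1 and 320.9 in wild type 1 to 4. The groups did not overlap on this probe set (log2 difference -0.45, SE 0.15, limma adjusted p = 0.405). The second tested probe set of Cr1l did not show this, at 183 ± 55.3 in the knockout and 170 ± 17.2 in the wild type (SD, n = 5 and 4), a log2 difference of 0.071. Itgb2, the shared beta chain of complement receptors 3 and 4, was the other gene without overlap, at 74.8 to 100.8 in the knockout and 109.5 to 122.3 in the wild type (log2 difference -0.33, limma adjusted p = 0.517). Over all 7658 tested probe sets 3.21% showed no overlap, 1.38% with the knockout below.

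Itgax, the alpha chain of complement receptor 4 and a dendritic cell marker, averaged 131 ± 29.2 in the knockout and 170 ± 14.4 in the wild type (SD, n = 5 and 4; log2 difference -0.39, limma adjusted p = 0.505). Itgam, the alpha chain of complement receptor 3, had a log2 difference of -0.072. C5ar1, the receptor for C5a, averaged 249 ± 71.4 in the knockout and 328 ± 37.5 in the wild type (log2 difference -0.43, limma adjusted p = 0.519). Fcna, a lectin-pathway ficolin made by macrophages, had a log2 difference of -0.29, and Cd59b, an inhibitor of the membrane attack complex, one of -0.32.

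C1ra, the protease that C1q activates, had a log2 difference of -0.20 on the brighter of its probe sets (limma adjusted p = 0.772) and 0.096 on the other. C8g, a chain of the membrane attack complex, had means of 53.0 ± 9.17 in the knockout and 38.6 ± 18.9 in the wild type (log2 difference 0.56, limma adjusted p = 0.616), a level at the filter signal. The 13 listed genes that were on the array but not tested include the lectins Mbl1 and Mbl2, their protease genes Masp1 and Masp2, the late components Hc and C9, and factor I, encoded by Cfi. Their probe sets averaged 0.58 to 43.0 in the knockout and 1 to 49.0 in the wild type.

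Markers of cells that can make complement were read in the same arrays. Of 20 macrophage markers 13 were tested, and 13 of 13 had lower means in Cd1d-/- skin, with a median log2 difference of -0.32. Of these 0 passed the adjusted threshold and 5 had an unadjusted p under 0.05. Over all 5855 genes 48.7% had a lower knockout mean and 8.57% had such a p. Their summed signal ran from 6478 to 7739 in the knockout and from 8079 to 9638 in the wild type, without overlap, and 0 of the tested markers were at 0. Csf1r, the receptor for macrophage colony-stimulating factor, had a log2 difference of -0.41 (limma adjusted p = 0.363). Laptm5, Mpeg1 and Lyz2, all of white blood cells or macrophages, had differences of -0.37, -0.56 and -0.34.

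When the fit also held the macrophage median of the arrays, the median difference of the C1q probe sets was -0.014, against -0.24 without it. The probe sets did not shift alike: C1qa had -0.12, the brighter C1qb probe set 0.10 and C1qc 0.091, whereas the dimmer C1qb probe set had -0.71, against -0.18 without the covariate. The median of C2, C4a and C4b, Cfb and Serping1 was -0.18, against -0.15. Within that group Cfb had -0.34, against -0.045 without the covariate, and Serping1 had 0.11 (limma adjusted p = 0.887, with a range of 0.281 to 0.887 over its alternatives). The macrophage median ran from -0.29 to 0.038 in the knockout and from 0.076 to 0.36 in the wild type, without overlap. A fit that holds both can therefore hardly separate genotype from macrophage level. What part macrophage content had in these values was not tested.

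Of 19 fibroblast markers 17 were tested, 5 had lower and 12 higher means in the knockout, and the median log2 difference was 0.21, with 0 past the adjusted threshold. Their summed signal ran from 22677 to 34275 in the knockout and from 21299 to 30326 in the wild type. The matrix genes Col5a2 and Col1a2 had log2 differences of 0.73 and 0.42, and Fbln1 and Dcn had -0.24 each. Endothelial markers had lower means in 8 of 8 cases, with a median of -0.13. Red cell markers had lower means in 3 of 3 cases, with a median of -1.38, and 2 of them passed the adjusted threshold. Their summed signal ran from 1325 to 2013 in the knockout and from 3293 to 5017 in the wild type, without overlap, and what part blood content had in the complement values was not tested. Keratinocyte, adipocyte and T cell markers had median log2 differences of 0.11 (6 tested), 0.16 (8 tested) and 0.088 (3 tested), with 0 past the adjusted threshold in each list. Of the liver genes Alb, Apoa1, Ttr and Fga, 0 were bright enough to be tested, with signals of 2.90 to 68.8 over all arrays.

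Interferon-response genes had lower means in 11 of 13 tested cases, with a median of -0.18 and 0 past the adjusted threshold. Their array medians, centred on the mean of the 9 arrays, ran from -0.47 to 0.36 in the knockout and from -0.11 to 0.38 in the wild type. Hair follicle markers had higher means in the knockout in 13 of 13 tested cases, with a median log2 difference of 1.52 and 0 past the adjusted threshold. Their levels also varied far more between mice than complement did. The follicle array medians ran from -2.05 to 2.81 in the knockout and from -1.38 to 0.038 in the wild type. With that median as a covariate the C1q median difference was -0.30 and that of the other components -0.16. The probe sets did not shift alike. The dimmer C1qb probe set had -0.48, against -0.18 without the covariate, and C1qc -0.10, against -0.086. C1qa had -0.34, against -0.38, and the brighter C1qb probe set -0.26, against -0.29. Serping1 had -0.16, against -0.27, and C2 -0.17, against -0.16. C4a and C4b had -0.17, against -0.13, and Cfb -0.14, against -0.045.

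**Figure D3:**
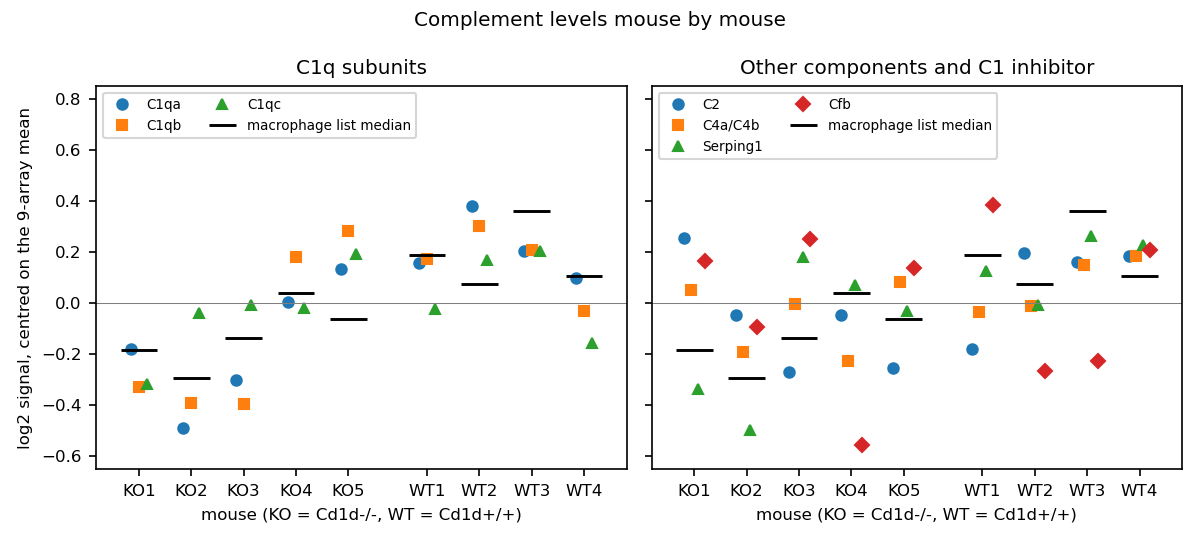
Log2 signal centred on the 9-array mean in each mouse, for the C1q subunits (left) and the other components and C1 inhibitor (right), with the macrophage list median as a black bar in both panels. C1qa and C1qb (brighter probe set) are lowest in knockout 1 to 3, where the macrophage median runs from -0.29 to -0.14.

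Mouse by mouse, C1qa and the brighter C1qb probe set went together. With each value taken as the deviation from its genotype mean, Pearson's r between them was 0.91 over the 9 mice (exact permutation within genotype, two-sided, p = 0.00208, adjusted over 28 pairs of members 0.0583), and 0.90 without the 2 arrays farthest from the median of C1qa. Spearman's rho was 0.92 (exact p = 0.00139, adjusted 0.0389). Knockout 1 to 3 were the lowest mice in both genes and knockout 4 and 5 lay higher. Knockout 4 was still below every wild-type mouse for C1qa. The 5 and 4 mice of a genotype are too few for a correlation within each. The pair thus passes the adjusted threshold by rank and misses it by Pearson's r. C1qc followed them less closely, with r of 0.64 to C1qb and 0.48 to C1qa (adjusted exact p 0.784 for both), and 0.92 and 0.89 without the 2 farthest arrays.

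Of the other pairs of members 0 passed the adjusted threshold, by r or by rho. Their r lay between -0.47 and 0.49, a range that also holds the 0.48 of C1qa and C1qc. Without the 2 arrays farthest from the median of the pair's first gene, they ran from -0.78 (C1qc with C3ar1) to 0.70 (C2 with C3ar1). Serping1 had r = 0.29 to C1qb (rank 2133 among 6918 probe sets of single genes ordered by r to Serping1), and C4a and C4b had r = -0.11. The sets of arrays with 7 and 9 decimals hold 5 and 4 mice, too few for a correlation within each.

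**Figure D4:**
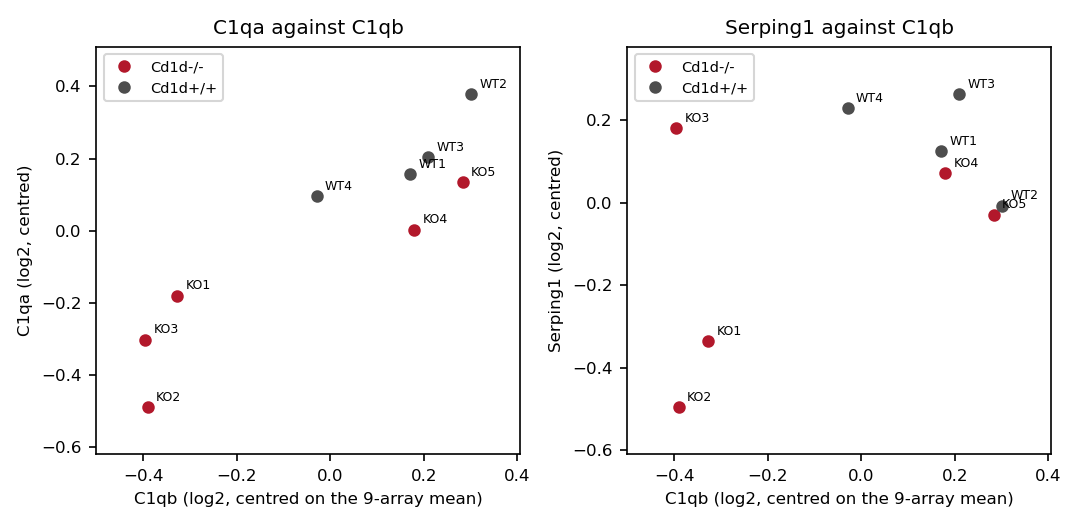
C1qa (left) and Serping1 (right) against the brighter C1qb probe set in the 9 mice. All are log2 signal centred on the 9-array mean, Cd1d-/- in red and Cd1d+/+ in grey. C1qa lies along a line with C1qb, and knockout 3 has low C1qb with high Serping1.

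Each of the 8 measured genes was also set against the macrophage and fibroblast medians, 16 relations in all. Of these 0 passed after adjustment, by r or by rho. Serping1 came closest, with r = 0.69 (exact permutation p = 0.0497, adjusted 0.476) and rho = 0.72 (exact p = 0.0361, adjusted 0.533) to the macrophage median within genotype, and r = 0.47 without the 2 arrays farthest from the median. C1qb had r = 0.60 to the macrophage median (exact permutation p = 0.111, adjusted 0.476; rho 0.52, exact p = 0.162, adjusted 0.576) and 0.65 without those 2 arrays. C1qa had r = 0.52 to the macrophage median (exact permutation p = 0.183, adjusted 0.476) and 0.36 without them. To the fibroblast median r was 0.47 for C1qa, 0.54 for C1qb, 0.12 for C1qc and 0.12 for C2. It was -0.61 for C4a and C4b, -0.41 for Cfb, -0.46 for Serping1 and -0.46 for C3ar1 (adjusted exact permutation p 0.476 to 0.810 over these 8 genes). Pooled over both genotypes, r to the macrophage median was 0.79 for C1qa (exact p = 0.0103, adjusted 0.0825) and 0.79 for Serping1 (exact p = 0.00947, adjusted 0.0825). Both genes and the macrophage median had lower means in the knockout, so these pooled values also carry the difference between genotypes.

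The probe sets of single genes most like each member were ranked by Pearson's r of deviations from the genotype mean over the 9 arrays. For C1qb they were Tor1aip2 (r = 0.96), Pnp (0.95), Gadd45g (0.94) and Gas6 (0.94), and C1qa ranked 12 and C1qc 286 of 6917. For Serping1 they were Zfx (0.96), Cd72 (0.95), Ltb4r1 (0.94) and Stat6 (0.94). For the probe set of C4a and C4b they were Saraf (0.95), Adh1 (0.94), D230025D16Rik (0.94) and Gnrh1 (0.94). For C3ar1 they were Lrba (0.97), Vcp (0.97), Baz1b (0.96) and Ppara (0.95). The dim Cfb had values as high, with Cyb561 (0.98), Cyth2 (0.98), Efnb3 (0.97) and Desi1 (0.96), so with 9 arrays an r of this size is reached by the closest of 6917 to 6919 probe sets for every member ranked.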

How the data were processed

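Per the labels, RNA of each mouse was hybridised to its own Affymetrix MG-U74 GeneChip and the signals were made with Microarray Suite 5.0. The deposited values are natural log signals, as settled from the numbers: the exponential of 100% of them is a whole multiple of 0.1 (within 0.002), and the mean after trimming 2% at each end is 200.1 in all 9 arrays, which shows scaling by the authors. Detection calls were not used here. An array has no sequencing depth, and the number of mice limits the precision.

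They were converted to log2 and not normalised again. The 66 control probe sets were left out. A probe set was tested where it reached the 40th percentile of its array in at least 4 of 9 arrays, which left 7658 of 12488. The tested member probe sets reached it in 8 or 9 arrays. Genes were named by the platform annotation, which assigns 1 gene to 10833 probe sets, several to 396 and none here to 1193. Chromosomes and gene order came from RefSeq (GRCm38.p6). A gene with several tested probe sets is represented in lists and relations by the one with the highest mean.

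Differences were tested with limma 3.58.1 in R 4.3.3 (lmFit and eBayes with trend, two-sided, Benjamini-Hochberg over all tested probe sets), and the fit was tested on simulated data. In 20 simulated runs of 5 against 4 arrays it recovered 27.7% of 1.5-fold, 67.6% of 2-fold and 94.0% of 4-fold changes. Each tested member differed by less than 1.5-fold, so 0 members past the threshold says little about changes of that size. Relations used exact permutation within genotype (2880 arrangements). Pairs among members were added after the data were seen. The members, lists and tests were chosen with earlier results of these data known. The text names all member probe sets and the 8 complement genes with the smallest p. In the macrophage and fibroblast lists it names the 4 genes with the smallest p, and for each member ranked the 4 genes most like it. Itgam, the second probe sets of Cr1l and C1ra, and the untested genes were named after their values were seen.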

Additional observations from a re-analysis of the deposited data

Results flagged for a closer look

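Single arrays that stood apart from the rest of their genotype were looked for with Dixon's ratio on log2 signal, in 24 groups (12 probe sets in each genotype), where chance gives about 1 in 20. It marked 3. Knockout 4 had the lowest knockout signal of the dimmer C1qb probe set, at 58.0, where the other knockout mice read 121 to 148.7. Wild type 1 had the lowest wild-type signal of C2, at 207.8, where the other wild-type mice read 262.7 to 269.6. Knockout 1 had the highest knockout signal of C3ar1, at 127.4, where the others read 96.1 to 103.5. Without wild type 1 the log2 difference of C2 was -0.25, and its limma adjusted p was 0.658 or more in the tested alternatives.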

How the results depend on the processing

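No member passed the adjusted threshold in any of the 22 alternatives with a test, where the lowest limma adjusted p was 0.274 (0 of 9 probe sets, or 0 of 7 with the filter at the 60th percentile). The 9 member differences kept their sign in 192 of 205 values. Changing or dropping the filter, or fitting without trend, cannot alter a log2 difference. Part of these agreements was therefore fixed in advance. With array weights the dimmer C1qb probe set had 0.0048 and Cfb 0.011. Without knockout 4 they had 0.065 and 0.089, and within the 7-decimal arrays 0.18 and 0.13. Over all mice left out in turn, the dimmer C1qb probe set lay between -0.27 and 0.065 and Cfb between -0.14 and 0.089, with 0.075 without wild type 1 and 0.015 without wild type 4. With the macrophage median as a covariate the brighter C1qb probe set had 0.10, C1qc 0.091, Serping1 0.11 and C3ar1 0.16, and the C1q median was -0.014. Within the 9-decimal arrays the median of the other components was -0.034, C1qc had 0.080, Fcna 0.026 and C8g -0.27. The cause of these shifts was not tested. Leaving out 1 mouse at a time gave C1q medians from -0.31 to -0.21 and medians of the other components from -0.21 to -0.11. The count over all probe sets, 4, was 0 with the macrophage covariate, 1 with the replicate block and up to 10 within the 7-decimal arrays. The sample titles state no pairing of same-numbered mice. Correlations of their deviations ran from -0.046 to 0.11, which cannot settle whether they were paired. The replicate block leaves out knockout 5, which has no same-numbered wild-type mouse. With it the C1q median was -0.31 and that of the other components -0.14, the same as without knockout 5 and no block. The shared C4a and C4b probe set and the dimmer C1qb probe set were also left out, after seeing the data, giving -0.16 and -0.29. Relations with marker lists passed in 0 of 16 cases in each of 3 alternatives. Dim probe sets, Cfb above all, are limited by signal near the filter.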
